A study of Mus musculus with 6 samples.

Results

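The genes described here encode the receptor for bacterial lipopolysaccharide (LPS) and the proteins that stand next to it: Tlr4 itself, its partner Ly96, the LPS carriers Cd14 and Lbp, the adaptors Tirap, Myd88, Ticam2 and Ticam1, the kinase Irak4 and the ubiquitin ligase Traf6. They were taken by name, as members of this complex, as a set of 10 out of 54012 genes in the deposited table, with earlier results of these data known. All 10 were in the table, and 9 averaged 1 TPM or more across the 6 libraries and could be tested, among 13458 genes that did so. Ticam2 lay below that level.

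Bulk RNA sequencing was done on total RNA of small intestine from 3 mice labelled TLR4ΔIEC and 3 mice labelled wild type (WT), all aged 8 to 12 weeks. The series title gives the depletion of intestinal TLR4 as the treatment, and ΔIEC by convention denotes a deletion in intestinal epithelial cells. The Cre driver, the deleted part of Tlr4, the strain, the sex and the stretch of small intestine are nowhere stated in the labels, and the WT mice are described by no allele beyond their name. Levels are in TPM, the share of transcripts corrected for length, which add up to the same total in each library, so genes can be set side by side within a library. They hold no read numbers, and the depth behind each value is unknown.

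LPS shed by Gram-negative bacteria is picked up by LPS-binding protein, passed to CD14 and loaded into the pocket of the small protein encoded by Ly96, which sits on the outer part of TLR4. At the cell surface the loaded receptor recruits MyD88 through the bridging adaptor encoded by Tirap, and IRAK4 and TRAF6 then carry the signal to NF-kB and the MAP kinases. From endosomes the same receptor signals through the adaptors encoded by Ticam2 (TRAM) and Ticam1 (TRIF) towards type I interferon. In the gut, macrophages and other leukocytes are well known carriers of TLR4, and the epithelium is usually described as holding little of it.

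None of the 9 tested genes passed the threshold, an adjusted p of 0.05 in limma with Benjamini-Hochberg adjustment over all 13458 genes, of which 0.119% passed (0.0446% higher and 0.0743% lower in TLR4ΔIEC). At an unadjusted p under 0.05, limma gave 3 of the 9 (Myd88, Ticam1 and Traf6), all higher in TLR4ΔIEC, and 21.2% of all tested genes, 18.4% higher and 2.77% lower. For 5 of the 9 (Tlr4, Cd14, Myd88, Ticam1 and Traf6) each TLR4ΔIEC library lay above each WT library, and this was so for 24.1% of all tested genes. Tlr4 averaged 0.64 TPM in WT and reached the level for testing only through its TLR4ΔIEC libraries, so its separation lends no support. No member had each TLR4ΔIEC library below each WT library, as 3.53% of all genes did, and either form of separation was found for 27.6% of all genes. The median log2 fold change of the 9 genes was 0.50, and that of all tested genes was 0.16.

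Those counts depended on how the libraries were scaled. Alpha-defensin transcripts took 18.4%, 5.21% and 6.61% of the TPM in TLR4ΔIEC replicates 1, 2 and 3, and 26.5%, 25.3% and 28.75% in WT replicates 1, 2 and 3. In TPM a smaller share of these very abundant genes leaves more of the fixed total to every other gene. Under median-of-ratios scaling each TLR4ΔIEC library lay above each WT library for 3 of the 9 genes (Tlr4, Myd88 and Traf6), against 10.8% of all genes. Tlr4 met the 1 TPM filter only through its TLR4ΔIEC values. With TPM rescaled without alpha-defensin, mitochondrial and 18S-like genes (Rn18s, Cmss1 and Gphn), Tlr4 alone remained, against 6.13% of all genes. Without single libraries, the count of such members was 6 without TLR4ΔIEC replicate 1 (34.8% of all genes), TLR4ΔIEC replicate 2 (36.2%), WT replicate 1 (32.1%) or WT replicate 3 (26.9%), 5 without WT replicate 2 (29.3%) and 4 without TLR4ΔIEC replicate 3 (28.4%). These further counts were chosen after the data were seen. In bulk tissue, fewer cells of a type and less RNA per cell cannot be told apart.

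**Figure D1:**
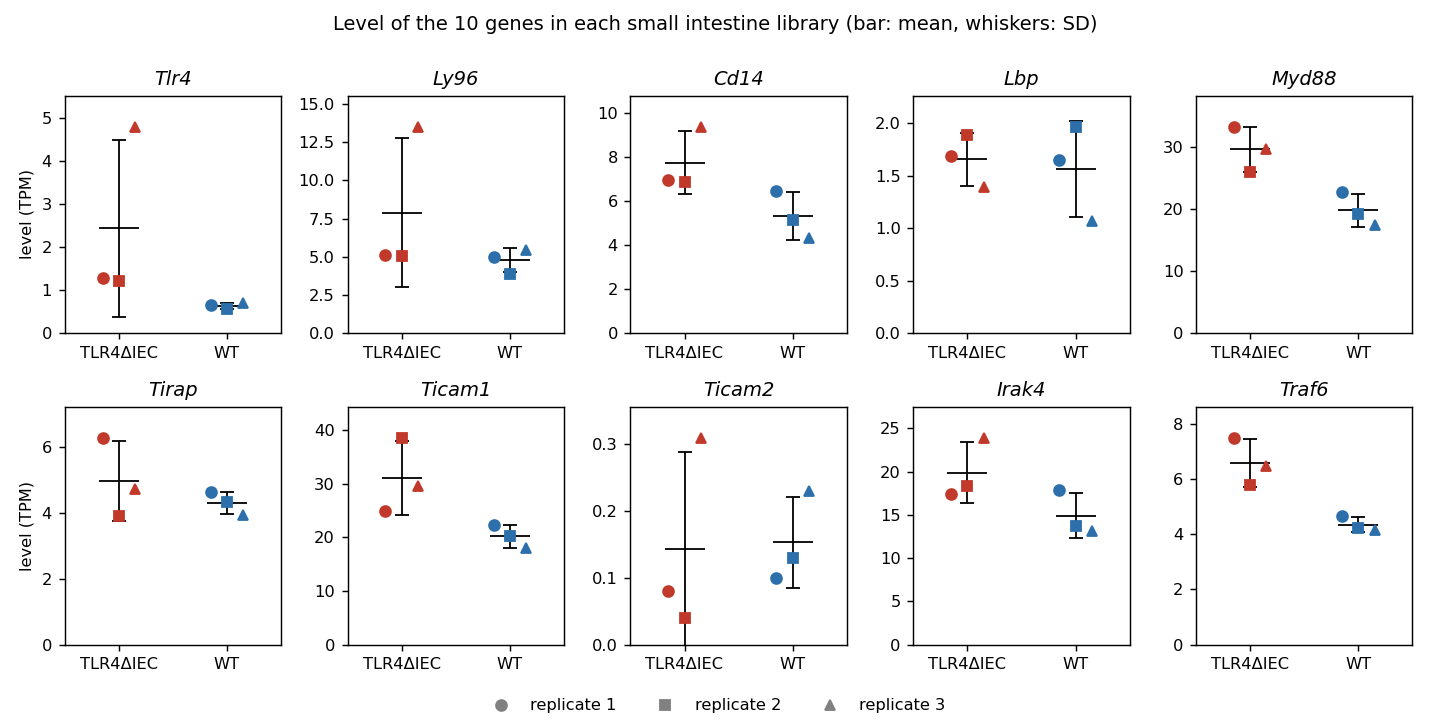
TPM of the 10 genes in each library (y axes in TPM from 0, a separate scale per gene; symbols give the replicate number, bars the mean and whiskers the SD of 3 libraries). Tlr4 and Ly96 have their highest point in TLR4ΔIEC replicate 3, at 4.81 and 13.5 TPM, while Myd88, Ticam1, Traf6 and Cd14 have all 3 TLR4ΔIEC points above all 3 WT points.

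Tlr4 (ENSMUSG00000039005, chromosome 4, 66827584 to 66930284, plus strand, GRCm38), the targeted gene, stood at 1.29, 1.22 and 4.81 TPM in the TLR4ΔIEC libraries and at 0.65, 0.57 and 0.70 TPM in the WT libraries. The 2 lower TLR4ΔIEC libraries lay close to each other and TLR4ΔIEC replicate 3 stood far above them, while the WT libraries lay close together and under all 3. The log2 fold change on log2(TPM + 1) was 0.92 (SE 0.40, 95% interval −0.02 to 1.85, limma adjusted p = 0.243), with 1.5 at a pseudocount of 0.1 TPM and 0.37 at 5 TPM, and p was 0.1 by exact permutation (two-sided), the lowest value that 3 libraries against 3 can reach. The limma p sets the difference of means against the spread between the libraries at hand, moderated over all genes. The permutation p takes that lowest value for any gene whose genotypes do not overlap, whatever its spread. All 3 WT values lay under the 1 TPM level, so Tlr4 entered the test only through its TLR4ΔIEC values, which favours such a separation. Without TLR4ΔIEC replicate 3 the mean of Tlr4 over the remaining libraries fell below 1 TPM and it was not tested. Its direction was opposite to that of a loss of the transcript, so the genotypes named here are those of the labels: TLR4ΔIEC stands for the library labelled so. The table has 1 value per gene, with a single length of 4077 bases for Tlr4, and does not show which exons the transcripts held, so it cannot show whether the targeted part was gone.

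Ly96 (ENSMUSG00000025779, chromosome 1, 16688051 to 16709611, plus strand), whose product binds the lipid part of LPS, was listed at 5.13, 5.04 and 13.5 TPM in the TLR4ΔIEC libraries and at 4.97, 3.91 and 5.46 TPM in the WT libraries. As with Tlr4, the value of TLR4ΔIEC replicate 3 stood apart, while the other 2 TLR4ΔIEC libraries lay within the WT range. For Ly96 the log2 fold change was 0.50 (95% interval −0.34 to 1.34, limma adjusted p = 0.463), and 0.08 without TLR4ΔIEC replicate 3. This partner of the receptor was thus measured at several times the level of the receptor in every library, since TPM are per length.

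The level of Tlr4 relative to Ly96 in the same library does not depend on how libraries are scaled. It was 0.251, 0.242 and 0.356 in the TLR4ΔIEC libraries and 0.131, 0.146 and 0.128 in the WT libraries. The lowest TLR4ΔIEC ratio lay well above the highest WT ratio, so the ratio did not overlap between genotypes (0.283 ± 0.0631 and 0.135 ± 0.00949, mean ± SD, n = 3 each; p = 0.1 by exact permutation, two-sided). Because Tlr4 met the 1 TPM filter only through its TLR4ΔIEC values, higher Tlr4 ratios there are favoured, and their separation lends no support. Of the 36 pairs that the 9 tested genes form, 7 had ratios that did not overlap between genotypes. That share is close to the 20.4% found over all pairs of tested genes with a value above 0 in every library. In 5 of the 7 pairs Tlr4 was the numerator, over Ly96, Cd14, Tirap, Irak4 and Traf6, and each of the 5 ratios was higher in the TLR4ΔIEC libraries. Tlr4 stood higher in this way relative to 76.1% of the 13167 other tested genes above 0 in every library. The ratios to its partners are thus not particular to them. The others were Myd88 over Tirap, which was higher, and Tirap over Traf6, which was lower. These pairs were picked out after their values were seen.

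**Figure D2:**
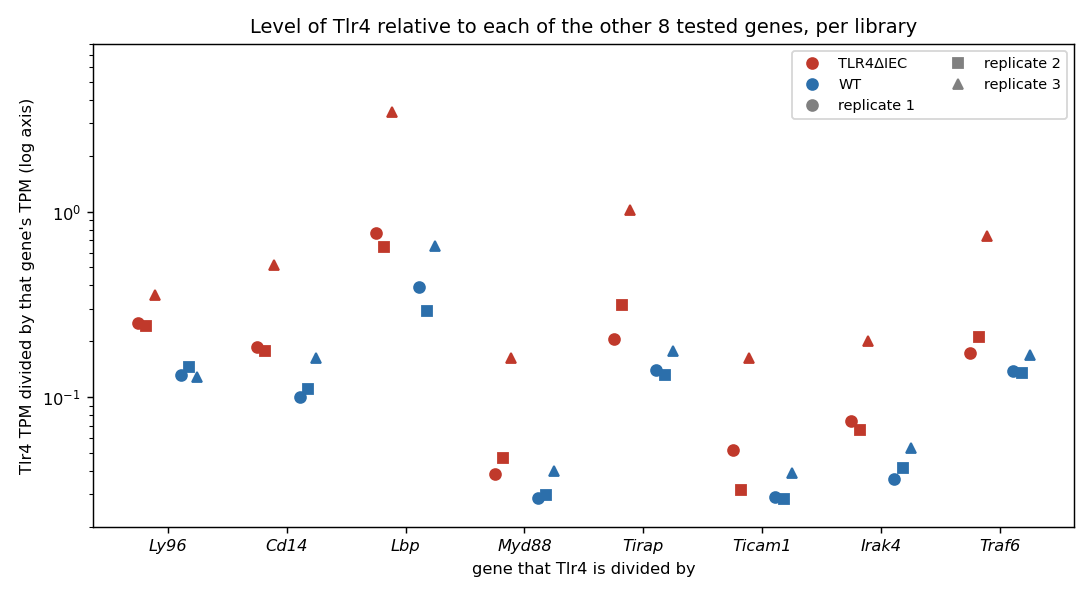
TPM of Tlr4 divided by the TPM of each of the other 8 tested genes in the same library (log y axis; TLR4ΔIEC left of WT for each gene, symbols give the replicate number). The ratio to Ly96 is 0.242 to 0.356 in TLR4ΔIEC and 0.128 to 0.146 in WT, while the ratios to Lbp, Myd88 and Ticam1 overlap. Tlr4 entered the tested genes only through its TLR4ΔIEC values, which favours higher ratios there.

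Cd14 (ENSMUSG00000051439, chromosome 18, 36725067 to 36726798, minus strand), the membrane-anchored co-receptor that hands LPS to the receptor, stood at 6.94, 6.86 and 9.37 TPM in the TLR4ΔIEC libraries and at 6.46, 5.13 and 4.30 TPM in the WT libraries. The genotypes did not overlap, by a gap of less than the spread within WT. Limma gave Cd14 a log2 fold change of 0.47 (SE 0.20; limma adjusted p = 0.236), with a 95% interval from just under 0 to 0.94. The value was 0.34 under median-of-ratios scaling and 0.20 with TPM rescaled without alpha-defensin, mitochondrial and 18S-like genes.

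Lbp (ENSMUSG00000016024, chromosome 2, 158306493 to 158332852, plus strand) encodes the LPS carrier, an acute phase protein made chiefly by the liver. It was listed at 1.69, 1.89 and 1.39 TPM in the TLR4ΔIEC libraries and at 1.65, 1.97 and 1.07 TPM in the WT libraries, so that the genotypes overlapped throughout. For Lbp the log2 fold change was 0.06 (95% interval −0.47 to 0.60, limma adjusted p = 0.899). Its sign turned under median-of-ratios scaling, with TPM rescaled without alpha-defensin, mitochondrial and 18S-like genes, and without WT replicate 3, but not under quantile normalization. A list of 6 hepatocyte genes summed to 3.22 to 5.71 TPM in the TLR4ΔIEC libraries and to 2.74 to 3.86 TPM in the WT libraries, with Alb at 0.18 TPM or less.

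Among the adaptors of the surface branch, Myd88 (ENSMUSG00000032508, chromosome 9, 119335934 to 119341411, minus strand), which links Toll-like and interleukin-1 family receptors to the IRAK kinases, stood at 33.4, 26.1 and 29.7 TPM in the TLR4ΔIEC libraries and at 22.8, 19.2 and 17.5 TPM in the WT libraries. All 3 TLR4ΔIEC libraries lay above the WT libraries, with means of 29.7 ± 3.63 and 19.8 ± 2.73 TPM (SD, n = 3 each). The log2 fold change of Myd88 was 0.56 (SE 0.16, 95% interval 0.19 to 0.94, limma adjusted p = 0.129), the smallest adjusted p among the 9 genes. It was 0.42 under median-of-ratios scaling and 0.25 with TPM rescaled without alpha-defensin, mitochondrial and 18S-like genes, where the limma adjusted p was 0.562.

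Traf6 (ENSMUSG00000027164, chromosome 2, 101678429 to 101701669, plus strand), the ligase on which both the NF-kB and the MAP kinase arms depend, was listed at 7.51, 5.79 and 6.48 TPM in the TLR4ΔIEC libraries and at 4.68, 4.25 and 4.15 TPM in the WT libraries. The WT libraries were close together, and the lowest TLR4ΔIEC library lay above them by more than their whole range. For Traf6 the log2 fold change was 0.50 (SE 0.16, 95% interval 0.12 to 0.88, limma adjusted p = 0.159), and 0.23 (95% interval −0.23 to 0.70) in the rescaled TPM. Myd88 and Traf6 stood in similar proportion in every library: Myd88 over Traf6 was 4.44, 4.51 and 4.58 in the TLR4ΔIEC libraries and 4.88, 4.51 and 4.21 in the WT libraries.

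Irak4 (ENSMUSG00000059883, chromosome 15, 94543643 to 94581815, plus strand), the first kinase of the complex that forms on MyD88, stood at 17.5, 18.3 and 23.9 TPM in the TLR4ΔIEC libraries and at 17.9, 13.7 and 13.1 TPM in the WT libraries. WT replicate 1 lay above TLR4ΔIEC replicate 1, so the genotypes overlapped, and the log2 fold change of Irak4 was 0.39 (95% interval −0.04 to 0.83, limma adjusted p = 0.276), and 0.09 in the rescaled TPM. Tirap (ENSMUSG00000032041, chromosome 9, 35184551 to 35200291, minus strand), which brings MyD88 to TLR4 at the membrane, was at 6.29, 3.91 and 4.73 TPM in the TLR4ΔIEC libraries and at 4.63, 4.34 and 3.95 TPM in the WT libraries. The lowest of the 6 values was that of TLR4ΔIEC replicate 2 and the highest that of TLR4ΔIEC replicate 1. Its log2 fold change of 0.15 (95% interval −0.31 to 0.62, limma adjusted p = 0.698) became −0.12 with TPM rescaled without alpha-defensin, mitochondrial and 18S-like genes.

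In the endosomal branch the adaptors stood at opposite ends of the set. Ticam1 (ENSMUSG00000047123, chromosome 17, 56269319 to 56276786, minus strand), which encodes TRIF and also serves TLR3, was at 24.9, 38.6 and 29.7 TPM in the TLR4ΔIEC libraries and at 22.4, 20.2 and 17.95 TPM in the WT libraries. The genotypes did not overlap, and the highest value was that of TLR4ΔIEC replicate 2. For Ticam1 the log2 fold change was 0.58 (SE 0.19, 95% interval 0.14 to 1.03, limma adjusted p = 0.159), and 0.27 with TPM rescaled without alpha-defensin, mitochondrial and 18S-like genes. Without TLR4ΔIEC replicate 1 its limma adjusted p was 0.0767, the smallest of any member under any alternative.

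Ticam2 (ENSMUSG00000056130, chromosome 18, 46557291 to 46574533, minus strand), whose product TRAM connects TLR4 to TRIF and does not serve TLR3, was barely measured. It stood at 0.08, 0.04 and 0.31 TPM in the TLR4ΔIEC libraries and at 0.10, 0.13 and 0.23 TPM in the WT libraries, below the level required for the test in each library. In GENCODE M21 its exons share 838 bases on the same strand with Tmed7, a secretory pathway gene at 49.0 to 57.4 TPM in the TLR4ΔIEC libraries and at 47.7 to 50.6 TPM in the WT libraries, so the assignment of reads between the 2 genes is uncertain. Exons on the opposite strand overlap those of Myd88 by 290 bases (Acaa1a), of Irak4 by 395 bases (Twf1) and of Tirap by 39 bases (Srpr). How strand was handled in assigning the reads is not known. Acaa1a had a log2 fold change of 0.20, Twf1 of 0.30 and Srpr of 0.25, and none of them passed the threshold.

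The order of the levels was much the same in all 6 libraries. Myd88 and Ticam1 held the first 2 places in each library, Myd88 ahead in TLR4ΔIEC replicates 1 and 3 and in WT replicate 1, and Ticam1 in the other 3. Their means did not differ beyond the spread between libraries in either genotype (29.7 ± 3.63 and 31.1 ± 6.96 TPM in TLR4ΔIEC, 19.8 ± 2.73 and 20.2 ± 2.24 TPM in WT). Irak4 held rank 3 in every library and Ticam2 rank 10. Cd14, Ly96, Traf6 and Tirap changed places among ranks 4 to 8, and their ranges overlapped in WT. Tlr4 held rank 9 in 5 of the 6 libraries, below Lbp, and rank 7 in TLR4ΔIEC replicate 3. The receptor was thus measured at a lower level than any of its tested partners in all libraries except TLR4ΔIEC replicate 3.

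The start regions of Myd88, Ticam1 and Traf6 are shown because these genes had the 3 smallest limma p-values of the set. They are the RefSeq windows from 250 bases before to 50 bases after the gene start (GRCm38.p6, 5′ to 3′ on the gene's strand), with matches to the searched motifs in capitals. Their start sites lie within 19 bases of the GENCODE M21 gene starts for Ticam1 and Traf6, while that of Myd88 lies 1393 bases inside the GENCODE gene, whose outer end is set by another transcript. The windows are chr9:119339969-119340268 on the minus strand for Myd88, chr17:56276718-56277017 on the minus strand for Ticam1 and chr2:101678170-101678469 on the plus strand for Traf6.
Myd88: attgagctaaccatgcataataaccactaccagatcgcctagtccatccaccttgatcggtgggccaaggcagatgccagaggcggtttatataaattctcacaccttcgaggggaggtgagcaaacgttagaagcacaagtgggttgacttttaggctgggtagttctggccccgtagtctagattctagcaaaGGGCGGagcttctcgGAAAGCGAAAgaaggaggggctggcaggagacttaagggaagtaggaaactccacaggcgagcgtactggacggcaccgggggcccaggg
Ticam1: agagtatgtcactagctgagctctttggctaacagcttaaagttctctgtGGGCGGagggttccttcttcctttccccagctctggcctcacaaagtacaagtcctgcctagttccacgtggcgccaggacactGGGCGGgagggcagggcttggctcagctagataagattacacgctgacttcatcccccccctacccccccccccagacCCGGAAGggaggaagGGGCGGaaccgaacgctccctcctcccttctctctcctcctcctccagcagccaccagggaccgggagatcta
Traf6: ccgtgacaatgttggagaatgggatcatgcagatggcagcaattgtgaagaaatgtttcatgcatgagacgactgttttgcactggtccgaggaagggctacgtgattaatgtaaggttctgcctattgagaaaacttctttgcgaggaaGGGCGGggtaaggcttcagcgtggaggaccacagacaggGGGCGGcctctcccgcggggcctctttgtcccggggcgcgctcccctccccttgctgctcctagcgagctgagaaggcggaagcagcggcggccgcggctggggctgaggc
Both strands were searched for an interferon regulatory factor motif (GAAA, 2 bases of any kind, GAAA), AP-1 (TGANTCA), Sp1 (GGGCGG), ETS (CCGGAAG) and the NF-kB consensus. The Myd88 window held 1 interferon regulatory factor match, 40 bases before the RefSeq start, and such a match is found in 3.44% of the 32851 RefSeq windows of the same length. It also held 1 Sp1 match, where Traf6 held 2 and Ticam1 held 3, and 35.7% of all windows hold at least 1. Ticam1 held 1 ETS match, found in 8.86% of all windows. No letters matching NF-kB or AP-1 were in these 3 windows, and 8.46% and 7.81% of all windows hold them. A match describes the letters of the window and does not show a site in use.

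**Figure D3:**
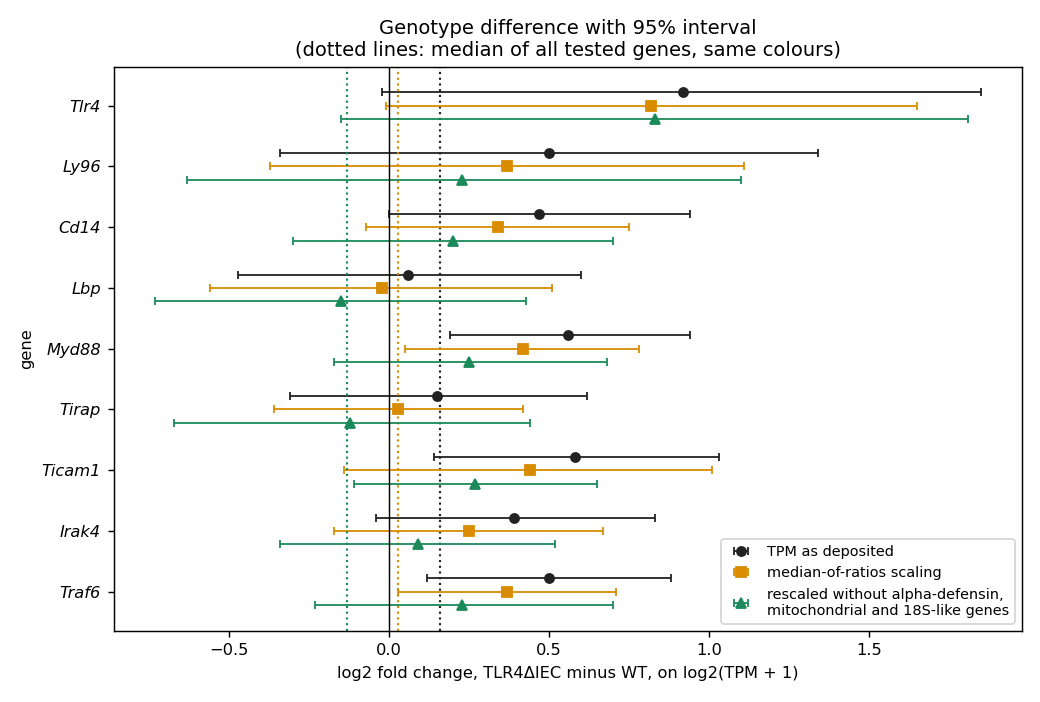
Log2 fold change of the 9 tested genes on log2(TPM + 1), TLR4ΔIEC minus WT (x axis), with 95% limma intervals, for TPM as deposited and under 2 other scalings. Dotted lines mark the median of all tested genes under each scaling (0.16, 0.03 and −0.13). Myd88 moves from 0.56 to 0.42 and 0.25, and Tlr4 is at 0.82 to 0.92 under the 3 scalings, at a pseudocount of 1 TPM, with the widest intervals.

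The markers of the cell types in the tissue are given beside these values, in the deposited TPM only. Epithelial genes summed to 11910 to 16193 TPM over a list of 11 in the TLR4ΔIEC libraries and to 8983 to 9693 TPM in the WT libraries, and 7 of the 11 had each TLR4ΔIEC library above each WT library, against 24.1% of all tested genes. Rescaling without alpha-defensin, mitochondrial and 18S-like genes multiplies TLR4ΔIEC libraries by 1.14 to 1.301 and WT libraries by 1.471 to 1.557. The epithelial sums and several of the 7 genes then overlap between genotypes. A list of 12 macrophage and monocyte genes summed to 262, 105 and 146 TPM in TLR4ΔIEC replicates 1, 2 and 3, against 173 to 217 TPM in the WT libraries, and none was at 0 in all libraries. The part of these cells in the values of Tlr4 was not tested. Neutrophil genes, a list of 9, summed to 2.17 to 12.4 TPM in TLR4ΔIEC and to 6.58 to 7.58 TPM in WT.

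Smooth muscle genes, a list of 8, summed to 357, 198 and 697 TPM in TLR4ΔIEC replicates 1, 2 and 3 and to 738, 316 and 281 TPM in WT replicates 1, 2 and 3. Their part in the values of Tlr4 was not tested. B and plasma cell genes, a list of 7, ran from 53.6 TPM in TLR4ΔIEC replicate 2 to 423 TPM in TLR4ΔIEC replicate 3, and from 587 to 766 TPM in WT. Fibroblast genes were lowest in TLR4ΔIEC replicate 2, at 76.9 TPM over 9 genes, against 354 and 179 TPM in TLR4ΔIEC replicates 1 and 3 and 182 to 307 TPM in WT.

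Markers of position along the gut differed between the genotypes for most genes, not all. The 6 ileal genes summed to 11011 to 36791 TPM in TLR4ΔIEC and to 3312 to 8232 TPM in WT. For 5 of them each TLR4ΔIEC library lay above each WT library, against 24.1% of all tested genes, while Fgf15 overlapped. Of the 6 proximal genes, 3 passed the threshold (0.119% of all tested genes) and 4 had each TLR4ΔIEC library below each WT library (3.53%). The other 2, Slc40a1 and S100g, had each above (24.1%). The sums of the 6 overlapped, at 138 to 234 TPM in TLR4ΔIEC and 184 to 932 TPM in WT, and Gata4, a regulator of proximal identity, stood at 0.23 to 2.20 TPM in TLR4ΔIEC and at 17.04 to 31.44 TPM in WT. Paneth cell genes, a list of 8, summed to 19088 to 68220 TPM in TLR4ΔIEC and to 98492 to 112966 TPM in WT. The part of position, epithelial share and Paneth cell transcripts in the values of Myd88, Ticam1, Traf6 and Cd14 was not tested.

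**Figure D4:**
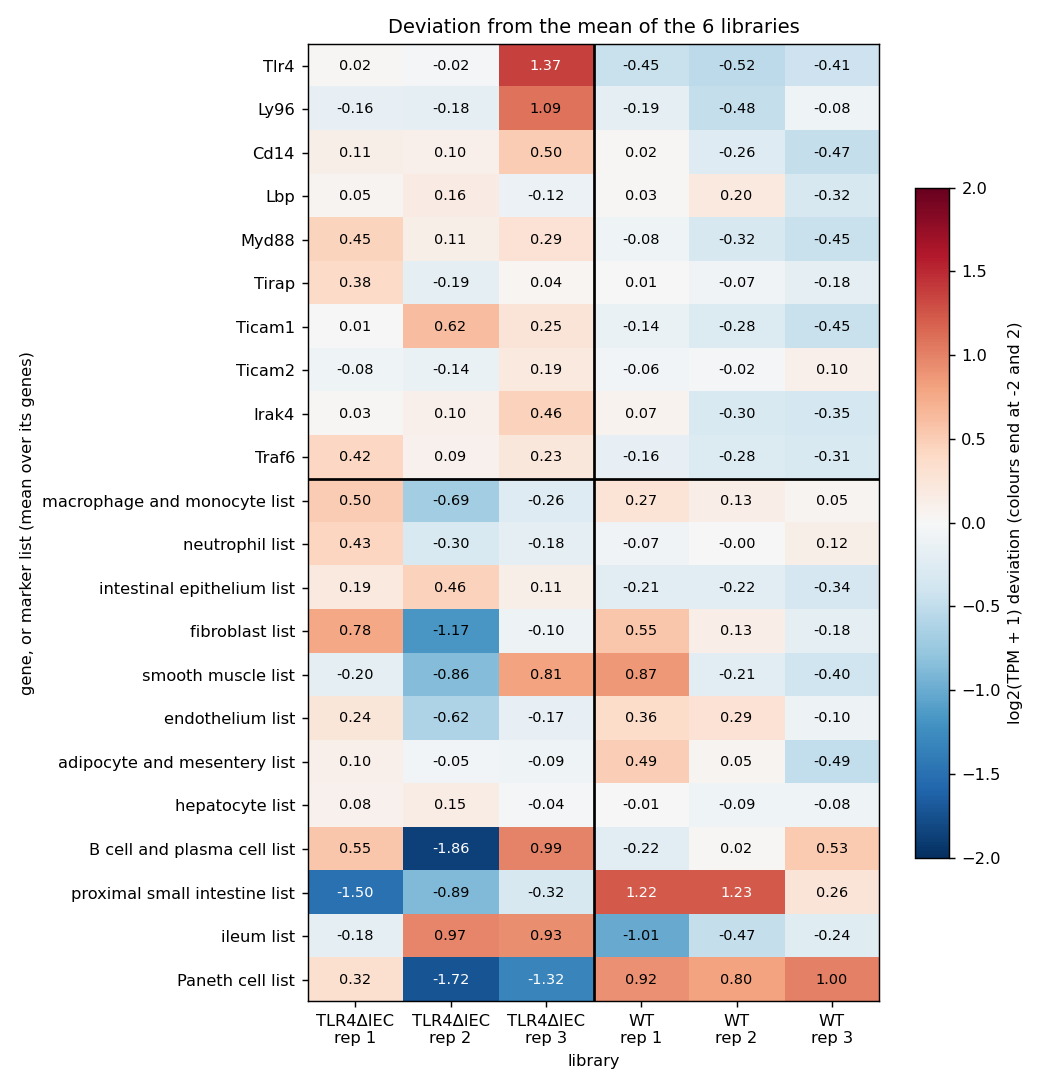
Deviation of each library from the mean of the 6 libraries on log2(TPM + 1), for the 10 genes (upper rows) and for the mean over each marker list (lower rows), TLR4ΔIEC libraries left of WT. Tlr4 is at 1.37 and Ly96 at 1.09 in TLR4ΔIEC replicate 3. The marker lists run from −1.32 (Paneth cell) to 0.99 (B cell and plasma cell) in that library. Macrophage and monocyte is at −0.26, smooth muscle at 0.81 and ileum at 0.93.

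The genes whose profile over the 6 libraries lay nearest to that of Tlr4 were taken by the root mean square difference of centred log2(TPM + 1), with no test. They were Selenop (0.153), a secreted selenium carrier, Cd38 (0.160), an NAD hydrolase of leukocytes, Sap25 (0.161), Card14 (0.1845), a scaffold of NF-kB signalling in epithelia, and Tnrc6b (0.188), a component of microRNA silencing. All 5 were highest in TLR4ΔIEC replicate 3, Cd38 at 44.1, 57.7 and 123 TPM in the TLR4ΔIEC libraries and at 32.7, 35.2 and 31.3 TPM in the WT libraries. Ly96 was at a difference of 0.226 from Tlr4, and ranked 11 among all tested genes with an official symbol. The other tested members ranked from 522 (Cd14) to 8834 (Lbp). Counted from Ly96, Tlr4 ranked 54.

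Nearest to Ly96 were Cmc4, Hspb11, Gt(ROSA)26Sor, Rsrp1 and Dclk1, at differences of 0.107 to 0.1505. Dclk1, a marker of tuft cells in the mouse gut, stood at 1.77, 2.12 and 5.35 TPM in the TLR4ΔIEC libraries and at 1.77, 1.86 and 1.82 TPM in the WT libraries. Nearest to Cd14 were Uxs1, Vwa8, Neo1, Ext2 and, at 0.0645, Irak4. A gene of the same set thus ranked 5 among tested genes with an official symbol. The remaining tested members ranked from 724 (Myd88) to 8704 (Tlr4). Nearest to Lbp were Tsfm, Sars2, Dnaja3, Clybl and Dus1l, at 0.0302 to 0.0575. These profiles share 6 libraries and the same scaling, so they describe likeness only.

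Further genes of the pathway were read from lists, and no list held a gene past the threshold. Of 19 tested genes of proximal signalling below the adaptors, limma gave 6 higher and 0 lower at an unadjusted p under 0.05, against 18.4% and 2.77% of all genes. Each TLR4ΔIEC library lay above each WT library for 9 of the 19 (24.1% of all genes), for 5 after median-of-ratios scaling (10.8%) and for 1 in the rescaled TPM (6.13%). The median log2 fold change stood at 0.38, and at 0.07 in the rescaled TPM. Ube2n, the ubiquitin-conjugating enzyme that works with TRAF6, was at 73.4, 82.4 and 85.0 TPM in the TLR4ΔIEC libraries and at 42.5, 55.1 and 51.5 TPM in the WT libraries (log2 fold change 0.69, limma adjusted p = 0.0982). Pik3ap1, an adaptor of PI3 kinase, had a log2 fold change of 1.09, Tradd of 0.62 and Ube2v1, the partner of Ube2n and the most abundant gene of the list, of 0.34.

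In the NF-kB, MAP kinase and interferon regulatory factor arm, 22 genes were tested. Limma gave 8 higher and 0 lower at an unadjusted p under 0.05, against 18.4% and 2.77% of all genes. For 11 each TLR4ΔIEC library lay above each WT library (24.1% of all genes), with 6 after median-of-ratios scaling (10.8%) and 4 in the rescaled TPM (6.13%). The median log2 fold change was 0.30, and −0.01 in the rescaled TPM. Relb, an NF-kB subunit of the non-canonical pathway, stood at 97.5, 151 and 103 TPM in the TLR4ΔIEC libraries and at 57.0, 39.7 and 47.7 TPM in the WT libraries (log2 fold change 1.25, SE 0.22, limma adjusted p = 0.0873). Nfkb2, which encodes its partner subunit, had a log2 fold change of 0.94 (limma adjusted p = 0.0828), and Jun, an AP-1 subunit, of 1.10 (limma adjusted p = 0.0800). These 3 genes passed the threshold when TLR4ΔIEC replicate 1 was left out, with limma adjusted p of 0.0445 to 0.0471, a setting under which 2.74% of all genes passed.

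Irf7, which drives type I interferon genes and had the highest mean level of that list, was at 893, 790 and 105 TPM in the TLR4ΔIEC libraries and at 205.5, 45.5 and 47.25 TPM in the WT libraries. TLR4ΔIEC replicates 1 and 2 stood far above the rest, TLR4ΔIEC replicate 3 lay below WT replicate 1, and Irf7 had a log2 fold change of 2.45 (95% interval 0.26 to 4.63, limma adjusted p = 0.197). The library with the highest Tlr4 was thus the TLR4ΔIEC library with the lowest Irf7. WT replicate 2, however, had the lowest value of both genes in the 6 libraries, Tlr4 at 0.57 TPM and Irf7 at 45.5 TPM.

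Of 23 listed genes that LPS induces, 8 lay below the level for testing, among them Tnf, Il6, Cxcl1, Cxcl2 and Ccl2, and Ifnb1 was listed at 0 in all 6 libraries. Of the 15 tested, limma gave 3 higher and 1 lower at an unadjusted p under 0.05 (18.4% and 2.77% of all genes), and the median log2 fold change of 0.15 was close to the 0.16 of all genes. Nos2, the inducible nitric oxide synthase, stood at 97.0, 52.5 and 68.1 TPM in the TLR4ΔIEC libraries and at 28.25, 38.1 and 35.0 TPM in the WT libraries (log2 fold change 1.05, limma adjusted p = 0.101). Ccl20, a chemokine of the epithelium over lymphoid follicles, was at 28.5, 2.15 and 11.4 TPM in the TLR4ΔIEC libraries and at 1.10, 0.86 and 1.88 TPM in the WT libraries. Ccl5, a chemokine of T and NK cells, had all its TLR4ΔIEC values under the WT values, at 62.55, 53.9 and 94.3 TPM in TLR4ΔIEC and 97.5, 290 and 261 TPM in WT (log2 fold change −1.50, limma adjusted p = 0.131).

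Of 10 tested genes that help the receptor fold, travel or share its structure, limma gave 1 higher and 2 lower at an unadjusted p under 0.05. The shares of all genes were 18.4% and 2.77%. For 2 of the 10 each TLR4ΔIEC library lay above each WT library (24.1% of all genes), and for 0 below (3.53%). The number above was 1 under median-of-ratios scaling (10.8%) and 1 in the rescaled TPM (6.13%). Rab11a, a GTPase of recycling endosomes through which TLR4 travels, stood at 226, 223 and 217 TPM in the TLR4ΔIEC libraries and at 144, 137 and 146 TPM in the WT libraries (log2 fold change 0.64, SE 0.12, limma adjusted p = 0.0935). The chaperone Hsp90b1, which TLR4 needs to reach the surface, had a log2 fold change of 0.12. The lipid receptors Cd36 and Scarb1 had values of −1.10 and −0.72, with overlapping libraries.

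Among other receptors and adaptors with TIR domains, 10 of 18 were tested and their median log2 fold change was −0.10. Tlr3, which signals through TRIF alone, was at 20.3, 11.4 and 12.3 TPM in the TLR4ΔIEC libraries and at 8.48, 5.59 and 6.93 TPM in the WT libraries (log2 fold change 0.94, limma adjusted p = 0.117). Tlr1 had a log2 fold change of 0.55, and Sigirr, an inhibitory receptor of the family, of 0.54. These lists were made with earlier results of the data known, and whether any list differs from other genes was not tested.

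**Figure D5:**
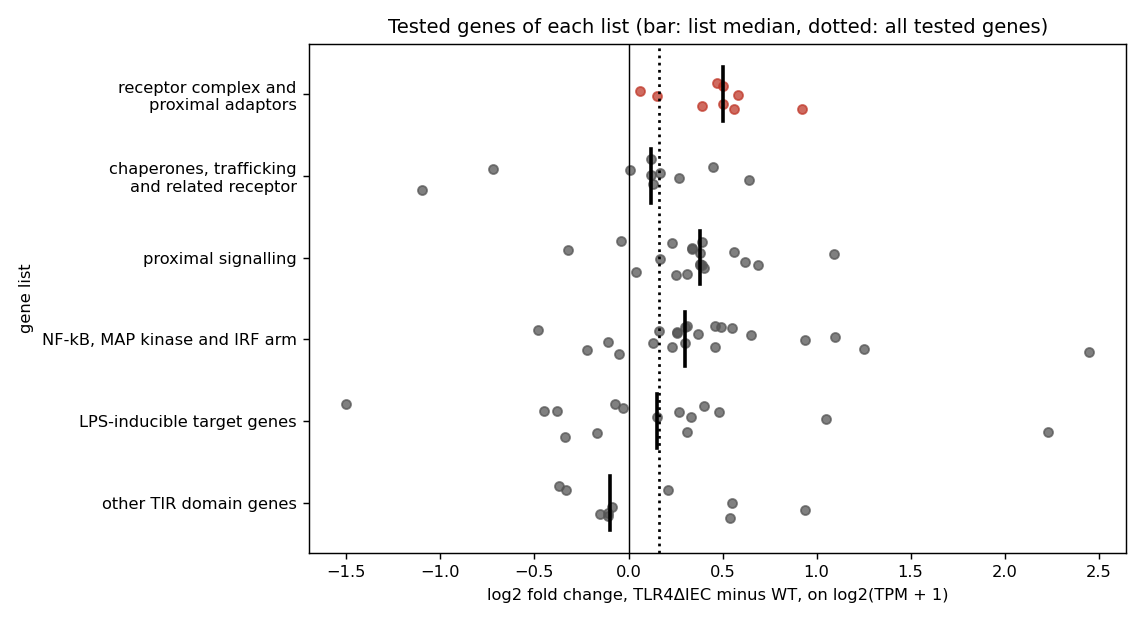
Log2 fold change on log2(TPM + 1), TLR4ΔIEC minus WT (x axis), of each tested gene in 6 lists, with the list median as a bar and the median of all tested genes, 0.16, as a dotted line. The receptor complex and its adaptors have a median of 0.50, proximal signalling 0.38, and other TIR domain genes −0.10.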

How the data were processed

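Small intestine RNA from 6 mice, 3 per genotype, was sequenced. Per the submitters' processing notes, fastp, HISAT and RSEM were used with build GRCm38.p5, without versions. The values deposited by the authors are TPM for each gene in each library (per the file headers), scaled to 1 total per library, so that abundant genes lower the rest. Library depth is unknown. Group and replicate came from the sample titles. Coordinates are those of GENCODE M21 (GRCm38). Genes averaging 1 TPM or more were tested on log2(TPM + 1), whose fold changes understate changes of low genes, with limma 3.58.1 in R 4.3.3 (lmFit, eBayes with trend, genotype alone, two-sided, Benjamini-Hochberg). The test was run on simulated data with independent genes and no shift in library composition, so that check does not bear on the scaling. Single values were compared by exact permutation with SciPy 1.17.1. Figures used matplotlib 3.10.9. Replicates are mice by the design text, and libraries correlated at 0.939 to 0.977 within a genotype, so none was a copy. TLR4ΔIEC replicate 2 stood apart, where 12221 genes reached 1 TPM (other libraries 13197 to 13634). Of each pathway list the text names the 3 smallest p-values and the highest level. For Tlr4, Ly96, Cd14 and Lbp it names the 5 most similar profiles. The members and lists were chosen with earlier results of these data known. Alternatives were other pseudocounts (0.1 and 5 TPM), filters, scalings, variance priors, a replicate block and each library left out. The authors' deposited mean TPM columns were not used.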

Additional observations from a re-analysis of the deposited data

How the results depend on the processing

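Over 16 alternatives the 9 tested members gave 140 log2 fold changes with a value. All had an adjusted p above the threshold, and 136 kept their sign. The sign of Lbp turned under median-of-ratios scaling (−0.02) and without alpha-defensin, mitochondrial and 18S-like genes (−0.15), where Tirap also turned (−0.12), and without single libraries the value of Lbp ran from −0.08 to 0.18. Tlr4, Lbp and Tirap had no value with a filter at a mean of 5 TPM, and Tlr4 had none without TLR4ΔIEC replicate 3. The number of members with each TLR4ΔIEC library above each WT library, 5 in the deposited TPM, was 3 under median-of-ratios scaling, 1 without alpha-defensin, mitochondrial and 18S-like genes, and 4 to 6 without single libraries. The number of NF-kB, MAP kinase and interferon regulatory factor genes past the threshold, 0 in all libraries, ran from 0 to 3 without single libraries. Over all genes 16 passed, with 0 under no filter (limma gave 3377 with an unadjusted p under 0.05), 7 at a mean of at least 5 TPM, and 0 to 367 without single libraries. The split of 6 higher and 10 lower became 3 and 15 under median-of-ratios scaling, 4 and 14 under quantile normalization, and 3 and 11 without alpha-defensin, mitochondrial and 18S-like genes, and the median of all genes moved to 0.03, 0.02 and −0.13. With the replicate number as a block 1 gene passed and no member did. Same-numbered libraries had correlations of their deviations of −0.0374, 0.0351 and 0.118, so the numbers were not treated as pairs. The cause of these shifts was not tested. Depth is unknown, so what it limits could not be given.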
